A study of Mus musculus with 16 samples.

Results

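Described here are the Mef2 transcription factors Mef2a, Mef2b, Mef2c, and Mef2d and the class IIa histone deacetylases Hdac4, Hdac5, Hdac7, and Hdac9 in mouse skeletal muscle. They were taken by gene name from the mRNA table, which gave 104 transcripts of these 8 genes among 82388 transcripts with 23235 gene names. The lncRNA NONMMUT018494.2, which lies inside an exon of Mef2c, was set beside them out of 58245 lncRNA transcripts. Total RNA of 16 mice was sequenced after removal of ribosomal RNA, with 1 library per mouse and 4 mice in each of 4 groups. All were male C57BL/6J mice (strain label C57BL/6), 6 weeks old at the start. The control group received a normal diet, and the HFD group received the high-fat diet D12492J for 8 weeks. The HFD + RSV group and the HFD + MET group received the same high-fat diet and then resveratrol, a plant polyphenol, or metformin, a glucose-lowering drug, for 6 weeks. Which muscle was taken, and whether the sequenced mice had been injected with insulin before collection, is not given in the sources used here.

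Mef2 proteins are MADS-box transcription factors that bind an A/T-rich element in the promoters of many muscle genes, among them genes of contraction, glucose uptake, and oxidative metabolism. Class IIa deacetylases bind Mef2 proteins and keep them repressed. Calcium-dependent and other kinases phosphorylate these deacetylases, which then bind 14-3-3 proteins and leave the nucleus, so that Mef2 targets can be transcribed. Mef2 genes are also spliced in alternative ways: an alpha1 or an alpha2 exon follows the DNA-binding part, and the short beta exon lies in the activation region and can be skipped.

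The members were proposed with earlier results of these data known. The choice rested on the change of Mef2c and of NONMMUT018494.2 with diet and with RSV, so in comparisons with HFD mice the values of these 2 are descriptions, and counts of members past a threshold leave Mef2c out. Comparisons without HFD mice reuse control or HFD + RSV mice from this choice, so P values of these 2 are no support there. Total counts ranged from 20281801 to 34021101 per mouse (median 26230158.5). In log2 CPM (counts scaled to the library total), Pearson's r between mice was 0.937 to 0.983 within groups and 0.930 to 0.982 between groups. No libraries were duplicated, since no pair had equal counts at more than 1.75% of the features compared. The labels of the 4 HFD mice share 1 leading number that no other group carries, and its meaning is not given, so the diet and a possible cage or batch marked by it cannot be told apart. In bulk muscle, fewer cells of a type and less RNA per cell cannot be told apart. The 10 skeletal muscle markers summed to between 26084 and 40066 FPKM (counts scaled by transcript length and library total), whereas the 4 retina markers in the table, looked at because a label speaks of retinas, summed to between 0.15 and 0.648 FPKM.

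The alternative exons are shown because the comparisons of Mef2 transcripts below turn on them. They were read from GENCODE M21 on GRCm38, and all 104 deposited member transcripts have the same coordinates there. In Mef2c (plus strand), alpha1 lies at chr13:83625265-83625408 and alpha2 at chr13:83625470-83625607. In Mef2d (plus strand), alpha1 lies at chr3:88158034-88158171 and alpha2 at chr3:88158221-88158355. The beta exons lie at chr7:67244521-67244544 in Mef2a (minus strand), chr13:83654598-83654621 in Mef2c, and chr3:88161781-88161801 in Mef2d. All are coding. Each is printed 5′ to 3′, and capitals mark the bases that are identical in a global alignment with the partner exon. The partners are alpha1 and alpha2 of the same gene, the beta exons of Mef2a and Mef2c with each other, and the beta exon of Mef2d with that of Mef2c.
Mef2c alpha1: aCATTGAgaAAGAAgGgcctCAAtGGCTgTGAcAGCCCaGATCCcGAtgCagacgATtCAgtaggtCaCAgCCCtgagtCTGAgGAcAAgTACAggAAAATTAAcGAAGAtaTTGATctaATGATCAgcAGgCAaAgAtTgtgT
Mef2c alpha2: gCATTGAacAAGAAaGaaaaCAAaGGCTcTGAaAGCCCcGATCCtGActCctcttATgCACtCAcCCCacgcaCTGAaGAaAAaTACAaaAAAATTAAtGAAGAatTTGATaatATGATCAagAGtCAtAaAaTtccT
Mef2d alpha1: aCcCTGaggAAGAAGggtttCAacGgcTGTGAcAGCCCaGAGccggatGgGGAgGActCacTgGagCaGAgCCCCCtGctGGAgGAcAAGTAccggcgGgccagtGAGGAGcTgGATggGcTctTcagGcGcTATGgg
Mef2d alpha2: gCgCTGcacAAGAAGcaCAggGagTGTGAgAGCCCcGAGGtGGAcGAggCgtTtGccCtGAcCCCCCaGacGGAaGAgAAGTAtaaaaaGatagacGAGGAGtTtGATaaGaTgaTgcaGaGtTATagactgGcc
Mef2a beta: TCgGAGGAaGaGGAatTGgaGTTG
Mef2c beta: TCtGAGGAtGtGGAtcTGctGTTG
Mef2d beta: aCTGAGGAccATtTagatcTG
The Mef2c alpha exons, of 144 and 138 bases, share 90 aligned bases, and the Mef2d alpha exons, of 138 and 135 bases, share 74. Alpha2 of Mef2c has 90 identical bases with alpha2 of Mef2d (65.2% of 138 aligned) and also with alpha1 of its own gene (62.5% of 144 aligned). The beta exons of Mef2a and Mef2c share 17 of 24 bases.

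Mef2c was the Mef2 gene with the highest mean level in every group. Levels are FPKM summed over the transcripts of a gene, which corrects for transcript length, and they are scaled by the total count of each library. Mef2c summed to 39.9, 79.7, 26.8, and 79.2 FPKM in the 4 control mice and to 112, 119, 115, and 82.8 FPKM in the 4 HFD mice. In the HFD + RSV group it summed to 41.7, 83.4, 96.8, and 99.3 FPKM, and in the HFD + MET group to 112, 112, 80.3, and 86.7 FPKM. Every HFD mouse was above every control mouse, and both treated groups overlapped the HFD group.

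Mef2d, a factor expressed in many tissues, summed to 37.7, 41.3, 36.3, and 37.3 FPKM in control mice and to 39.5, 38.9, 38.7, and 41.2 FPKM in HFD mice. The HFD + RSV mice had 39.6, 37.5, 40.0, and 35.3 FPKM, and the HFD + MET mice had 41.4, 46.2, 33.1, and 42.9 FPKM. All 4 groups overlapped for Mef2d. Mef2a, the other widely expressed factor, summed to 19.9, 16.7, 20.2, and 20.6 FPKM in control mice and to 21.01, 19.3, 20.2, and 19.7 FPKM in HFD mice. It summed to 19.8, 23.9, 21.1, and 21.2 FPKM in HFD + RSV mice and to 20.1, 23.8, 20.3, and 20.4 FPKM in HFD + MET mice. Its groups overlapped too. Mef2b, which is best known from lymphocytes, was near the limit of detection at 0.0466 to 0.288 FPKM, or 2 to 9 counts per mouse. It did not pass the count filter and was not tested.

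Hdac4, a repressor that muscle denervation is known to raise, was the deacetylase whose FPKM was higher in every HFD mouse than in every control mouse. It summed to 24.3, 30.3, 25.3, and 26.3 FPKM in control mice and to 35.0, 37.1, 43.0, and 40.2 FPKM in HFD mice. In HFD + RSV mice it summed to 32.8, 24.9, 38.2, and 25.8 FPKM, and in HFD + MET mice to 34.1, 32.1, 25.9, and 34.9 FPKM. The HFD mice were above all HFD + MET mice too, whereas 1 HFD + RSV mouse lay within the HFD range.

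Hdac5, a deacetylase that responds to exercise and to calcium signals, summed to 30.6, 29.3, 25.3, and 29.0 FPKM in control mice and to 21.3, 23.7, 21.4, and 29.3 FPKM in HFD mice. The range was 21.6 to 26.2 FPKM with RSV and 24.0 to 28.8 FPKM with MET. Hdac7, best known from endothelial cells and thymocytes, ranged from 5.96 to 6.83 FPKM in control mice, 5.83 to 7.51 in HFD mice, 5.83 to 6.37 in HFD + RSV mice, and 5.56 to 9.15 in HFD + MET mice. Neither gene separated HFD from control mice. Hdac9, whose short form lacks the deacetylase domain, ranged from 2.18 to 3.44 FPKM in control mice, 1.88 to 3.08 in HFD mice, 2.08 to 4.01 in HFD + RSV mice, and 1.67 to 3.52 in HFD + MET mice.

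By mean level per length, the order in the control group was Mef2c (56.4 ± 27.2 FPKM, SD, n = 4), Mef2d (38.2 ± 2.20), Hdac5 (28.5 ± 2.28), Hdac4 (26.5 ± 2.61), Mef2a (19.4 ± 1.78), Hdac7 (6.52 ± 0.387), Hdac9 (2.83 ± 0.668), and Mef2b (0.135 ± 0.0455). In the HFD group it was Mef2c (107 ± 16.5), Mef2d (39.6 ± 1.12), Hdac4 (38.8 ± 3.52), Hdac5 (23.9 ± 3.72), Mef2a (20.0 ± 0.761), Hdac7 (6.46 ± 0.781), Hdac9 (2.62 ± 0.515), and Mef2b (0.0857 ± 0.0472). Hdac4 and Hdac5 thus stood in the opposite order in these groups. In the control group the mice of Mef2c overlapped with those of Mef2d, Hdac5, and Hdac4, and Hdac5 overlapped with Hdac4. In the HFD group the mice overlapped between Mef2d and Hdac4 alone. Both treated groups had the order of the HFD group. The mean coefficient of variation within a group was 7.001% for Mef2d and 7.34% for Mef2a but 28.5% for Mef2c, 26.2% for Hdac9, and 55.1% for Mef2b.

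**Figure D1:**
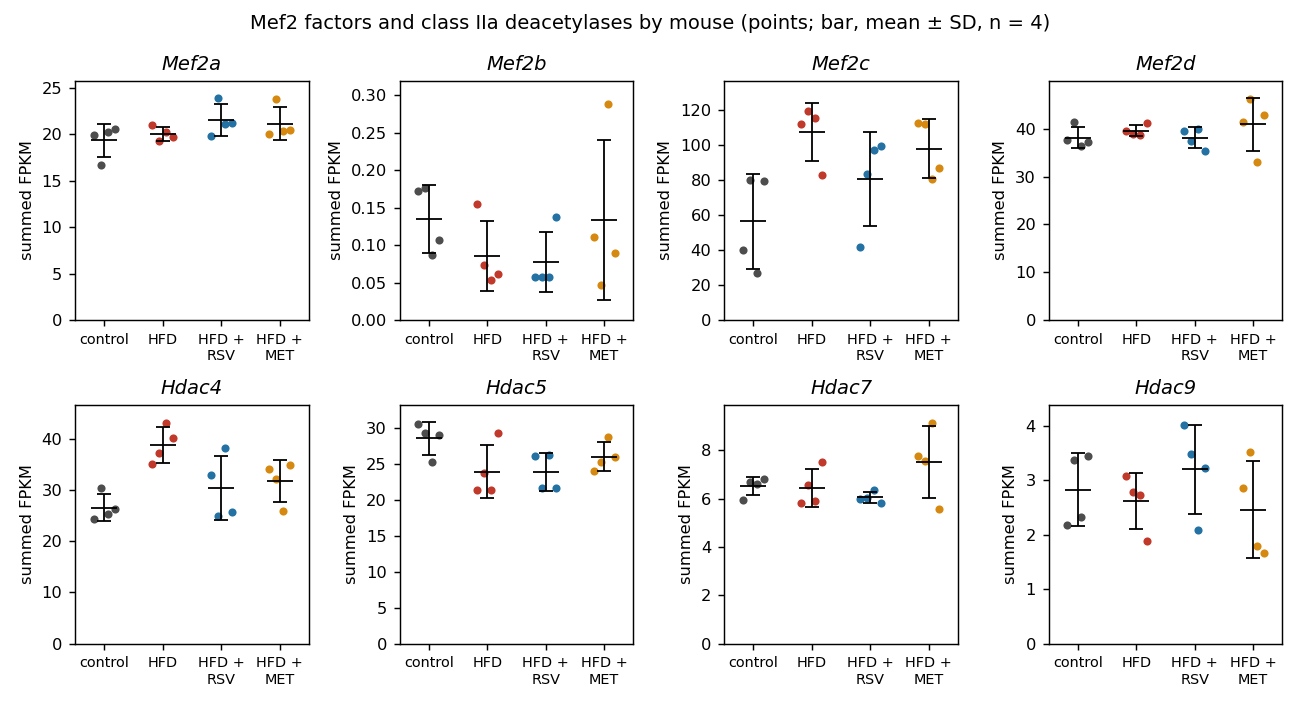
Summed FPKM of each member (y axes, linear, starting at 0) for the 16 mice in 4 groups (points), with the mean and SD of 4 mice. The HFD mice lie above the control mice for Mef2c and Hdac4, and the groups overlap for Mef2a, Mef2d, Hdac7, and Hdac9.

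The diet comparison asks which members differ in muscle of insulin-resistant mice. In edgeR's quasi-likelihood test on counts summed per gene, with Benjamini-Hochberg adjustment over 15364 genes, 0 of the 6 members tested other than Mef2c passed an adjusted P of 0.05 with diet (HFD minus control), and 2.43% of all genes did. At an unadjusted P of 0.05, 1 of the 6, Hdac4, passed, against 24.2% of all genes. For Mef2c, as a description, the log2 fold change (log2FC) was 1.66 (SE 0.269, n = 4 and 4), or 3.16-fold. This is a fold of counts, which are not corrected for transcript length, and the mean FPKM was 107 ± 16.5 in the HFD group and 56.4 ± 27.2 in the control group (SD, n = 4).

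Hdac4 had a log2FC of 0.69 with diet (SE 0.178), or 1.62-fold, with an edgeR adjusted P of 0.0542, just outside the threshold. Its adjusted P ranged from 0.00628 to 0.16 over the alternatives tried, and it passed with DESeq2, in a fit without the metformin mice, and in a fit of these 2 groups alone. In TMM-scaled log2 CPM, the HFD and control mice did not overlap for Hdac4, 1 of these 6 members, as for 18.3% of all genes tested.

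The other 5 members did not pass the threshold. Their log2FC with diet was 0.25 for Mef2a (SE 0.131, edgeR adjusted P 0.257), 0.16 for Mef2d (SE 0.127), -0.01 for Hdac5 (SE 0.103), 0.19 for Hdac7 (SE 0.0993), and 0.08 for Hdac9 (SE 0.298). Hdac5 had a mean FPKM of 28.5 in control mice and 23.9 in HFD mice. Its log2FC was -0.01 with TMM scaling and -0.16 with total count scaling, which moved the median log2FC of all genes by -0.16 with diet and by 0.13 with MET. FPKM, unlike counts, also weight each transcript by its length, and the part of either in the Hdac5 values was not tested.

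The RSV comparison asks which members differ when resveratrol is added to the high-fat diet. None of the 6 members other than Mef2c passed an adjusted P of 0.05 in edgeR with RSV (HFD + RSV minus HFD), and 0.0% of all genes did. At an unadjusted P of 0.05 with edgeR 0 of the 6 passed, against 4.72% of all genes, and DESeq2 called 0 of the 6 after adjustment, against 0.0521% of all genes. Mef2c had a log2FC of -1.17 (SE 0.266, description). In TMM-scaled log2 CPM Hdac7, 1 of these 6, did not overlap between these groups, as for 4.2% of all genes, although its FPKM did. Hdac7 had a log2FC of -0.21 (SE 0.0993, edgeR adjusted P 0.9995). Hdac4 had a log2FC of -0.36 (SE 0.178, edgeR adjusted P 0.9995), and its HFD + RSV mice were at 32.8 and 38.2 FPKM and at 24.9 and 25.8 FPKM.

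With metformin, again none of these 6 members passed an adjusted P of 0.05 in edgeR against HFD mice, and 0.013% of all genes did. At an unadjusted P of 0.05 with edgeR, 1 of the 6 passed, against 8.02% of all genes, and DESeq2 called 0 of the 6, against 0.219%. The 1 gene was Hdac4, with a log2FC of -0.45 (SE 0.178, edgeR adjusted P 0.618). Mef2c had a log2FC of -0.64 (SE 0.263, description). Hdac4 did not overlap between these groups, as for 3.72% of all genes. The 3 comparisons given so far share the HFD mice, so a high or low HFD group enters all of them.

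**Figure D2:**
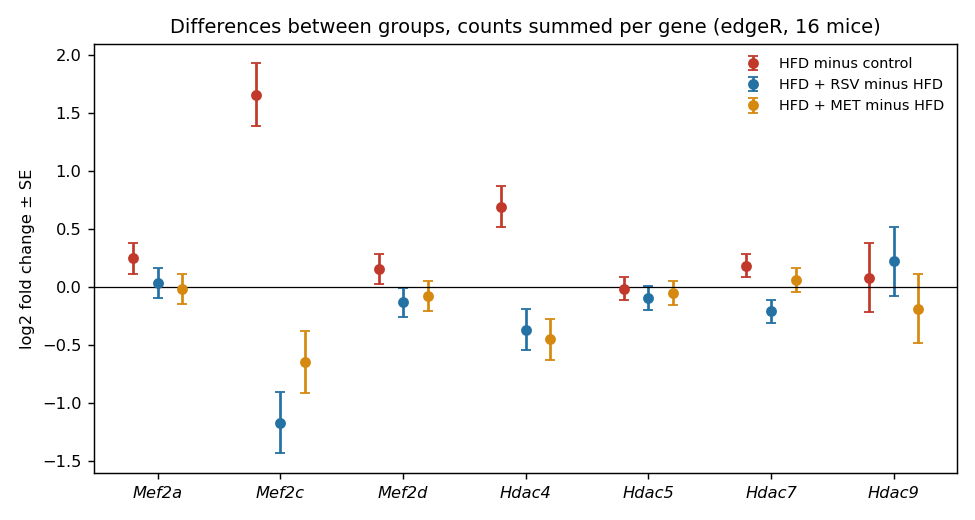
Log2 fold change with its SE (y axis) of the 7 tested members (x axis) for HFD minus control and for each treated group minus HFD, from counts summed per gene in 1 edgeR fit to 16 mice. Mef2c lies at 1.66, -1.17, and -0.64, Hdac4 at 0.69, -0.36, and -0.45, and Mef2d within 0.16 of 0.

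Mef2c is counted among 7 members in the comparisons without HFD mice, although control and HFD + RSV mice entered its choice. Nothing is read from its part in these counts. Without Mef2c, 1 of 6 members passed an unadjusted P of 0.05 in edgeR in each, and DESeq2 called 0 of 6. The shares of all genes follow below. No member passed an adjusted P of 0.05 in edgeR between a treated group and the control group, while 0.00651% of all genes passed with RSV and 0.0% with MET. At an unadjusted P of 0.05 with edgeR, 1 of 7 members, Mef2a, passed with RSV, against 15.8% of all genes, and 2 of 7, Mef2c and Hdac7, passed with MET, against 9.5%. DESeq2 called 0 of 7 with RSV, against 2.67% of all genes, and 1 of 7, Mef2c, with MET, against 0.918%. Mef2c in the HFD + MET group was above the control group by a log2FC of 1.02 (SE 0.265, edgeR adjusted P 0.232), with no overlap between the mice, as for 3.53% of all genes. With RSV its log2FC against the control group was 0.49 (SE 0.263, edgeR adjusted P 0.369). Directly between the treated groups, RSV minus MET, 0 of 7 members passed in edgeR and in DESeq2, against 0.0 and 0.0651% of all genes, and 1 of 7, Hdac7, passed at an unadjusted P of 0.05, against 4.68% of all genes. Hdac7 had a log2FC of -0.27 (SE 0.0993, edgeR adjusted P 0.962) there, and Mef2c -0.52 (SE 0.263, edgeR adjusted P 0.962).

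NONMMUT018494.2 is a 2095-base lncRNA at chr13:83664245-83666339 (GRCm38). It lies wholly inside the last exon of Mef2c (chr13:83662307-83667078), in the part that follows the coding region. The table gives no strand for it. Of the 30 deposited Mef2c transcripts, 8 reach into it and share bases with it, and the other 22 end before it or lie elsewhere. The lncRNA NONMMUT018495.2 (chr13:83665272-83667077) shares 1068 bases with it, and NONMMUT018493.2 (chr13:83663950-83667661) spans it. StringTie divides the reads of shared bases among overlapping transcripts, so a count given to one of them depends on the others, and how many reads fell on the shared bases cannot be read from the tables.

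**Figure D3:**
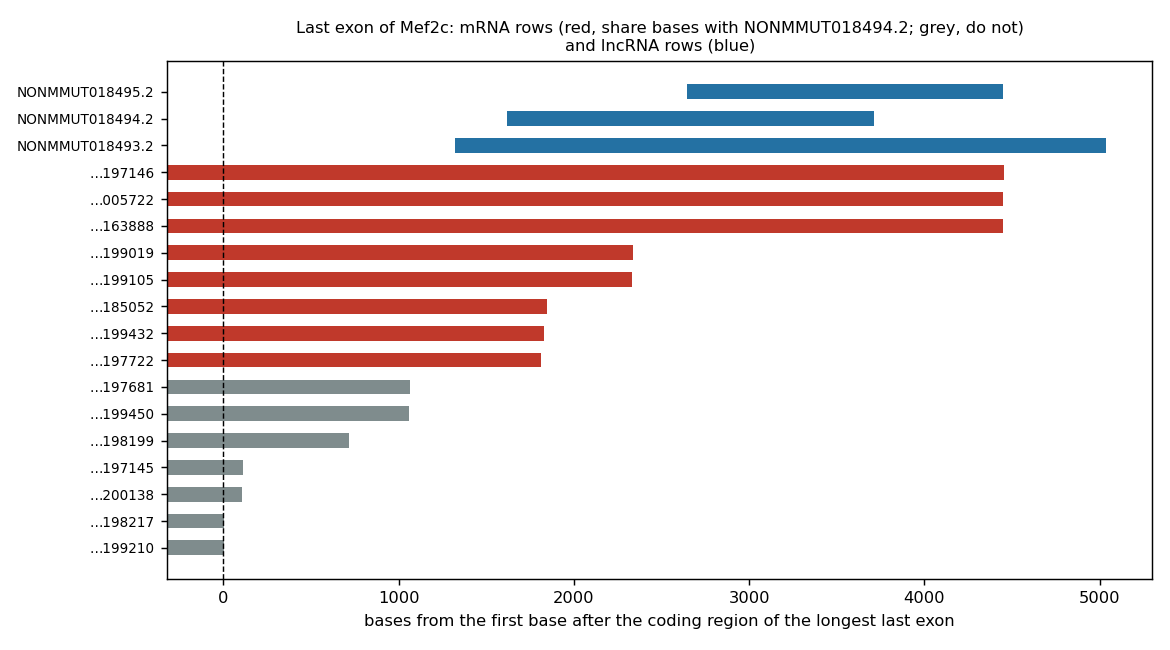
Map of the last exon of Mef2c with bases from the end of the coding region on the x axis. There is 1 bar for each deposited protein-coding mRNA transcript that reaches it and for NONMMUT018493.2, NONMMUT018494.2, and NONMMUT018495.2. The lncRNA NONMMUT091853.1, with 209 bases in this exon, is not drawn. Red bars share bases with NONMMUT018494.2, grey bars do not, and blue bars are the lncRNAs, with NONMMUT018494.2 inside the longest mRNA bars.

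Counts of NONMMUT018494.2 fell into a low and a high range with nothing between. Control mice had 6, 8, 5, and 6 counts, and HFD mice had 312, 1262, 967, and 446. HFD + RSV mice had 7 counts each, and HFD + MET mice had 712, 8, 575, and 7. Over all mice, 10 of 16 had fewer than 10 counts, and 6 of 16 had at least 100. HFD mice did not overlap with HFD + RSV mice, while the HFD + MET group held 2 mice of each kind. In FPKM the 6 mice ranged from 5.17 to 19.7, and the 10 mice from 0.0924 to 0.137.

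As a description, the log2FC of NONMMUT018494.2 was 6.97 (SE 1.40) with diet and -6.73 (SE 1.38) with RSV. It was -1.09 (SE 1.04) with MET against HFD mice. The 3 comparisons without HFD mice are a description too, since control and HFD + RSV mice entered the choice of this lncRNA. Their P values are printed, and nothing is read from them. The log2FC was 5.88 (SE 1.35, edgeR adjusted P 0.181 over 17599 lncRNAs) for MET minus control, -5.64 (SE 1.33, edgeR adjusted P 0.882) for RSV minus MET, and 0.24 (SE 1.36, edgeR adjusted P 0.976) for RSV minus control. It passed in none of them in edgeR, where 0.0, 0.00568, and 0.0114% of all lncRNAs passed. It passed in DESeq2 for MET minus control and RSV minus MET, where the share of all lncRNAs that passed was not counted.

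The overlapping lncRNAs did not follow it. NONMMUT018495.2 had 1100, 1748, 922, and 989 counts in control mice, 1824, 2155, 1733, and 972 in HFD mice, 1676, 1364, 1673, and 1811 in HFD + RSV mice, and 1114, 2084, 952, and 1959 in HFD + MET mice. Its groups overlapped, with a log2FC of 0.59 (SE 0.239, edgeR adjusted P 0.212) with diet. NONMMUT018493.2 had 48 to 182 counts, with a log2FC of 0.74 (SE 0.287, edgeR adjusted P 0.196) in that comparison.

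The 8 Mef2c transcripts that share bases with NONMMUT018494.2 were high in the same mice. Their summed count was 841, 412, 743, and 229 in control mice and 5067, 8291, 8394, and 4912 in HFD mice. It was 690, 350, 401, and 421 in HFD + RSV mice and 4457, 432, 3838, and 504 in HFD + MET mice. The 4 HFD mice and HFD + MET mice 1 and 3 thus stood at 3838 or more, and the other 10 mice at 841 or fewer. As a share of the Mef2c count, these transcripts took 34.7, 7.38, 35.4, and 6.59% in control mice, 52.1, 65.6, 68.6, and 66.3% in HFD mice, 24.4, 7.39, 7.65, and 7.52% in HFD + RSV mice, and 62.3, 5.79, 62.4, and 7.59% in HFD + MET mice.

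The 22 other Mef2c transcripts showed another pattern. Their summed count was 1582, 5172, 1356, and 3248 in control mice, 4659, 4354, 3844, and 2494 in HFD mice, 2143, 4386, 4844, and 5180 in HFD + RSV mice, and 2694, 7025, 2310, and 6133 in HFD + MET mice. These counts overlapped between all groups. In a fit added after the data were seen, in which only these 22 transcripts made up the Mef2c count, the log2FC of Mef2c was 0.48 with diet, 0.13 with RSV, and 0.13 with MET against HFD mice. With all 30 transcripts the values were 1.66, -1.17, and -0.64. Because reads of shared bases are divided among transcripts, the counts of the 8 and of the 22 transcripts depend on each other. Adding the count of NONMMUT018494.2 to that of Mef2c gave 1.76 with diet.

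**Figure D4:**
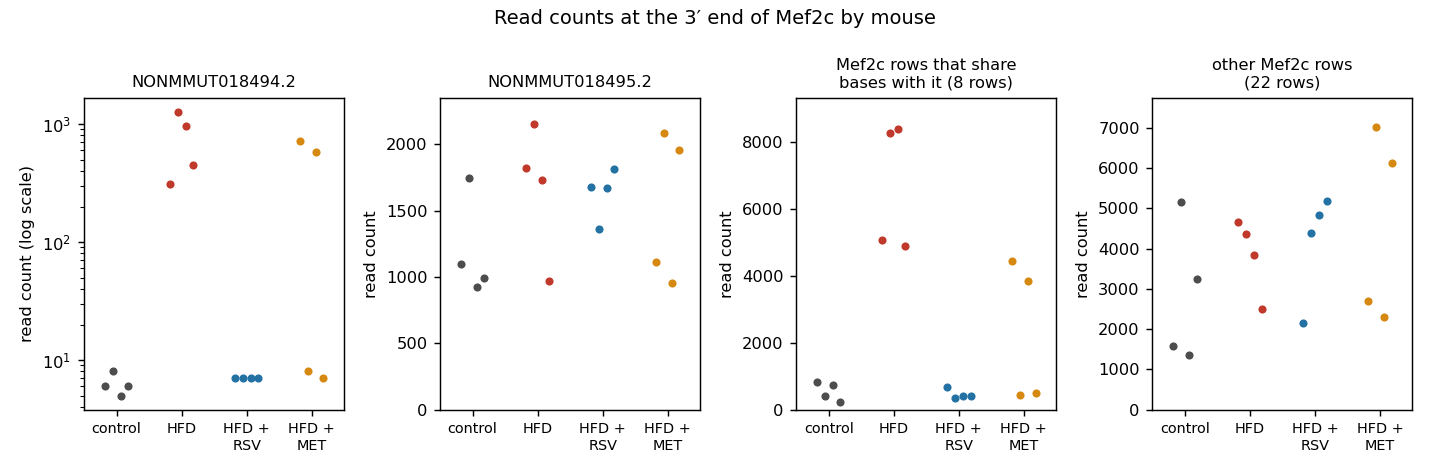
Read counts per mouse (points) in 4 groups for NONMMUT018494.2 (log axis), NONMMUT018495.2, the 8 Mef2c transcripts that share bases with NONMMUT018494.2, and the 22 that do not (linear axes from 0). The HFD mice and 2 of the HFD + MET mice are high in the panels of NONMMUT018494.2 and of the 8 transcripts, and the groups overlap in the other panels.

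Transcript counts of Mef2c were spread unevenly over mice. By mean share of the gene's FPKM, ENSMUST00000198199, a coding transcript with alpha2 and without NONMMUT018494.2 bases, was first with 31.9%. Its level was 11.3, 33.4, 8.87, and 32.2 FPKM in control mice, 37.2, 33.7, 21.1, and 16.3 in HFD mice, 10.05, 32.6, 37.8, and 39.0 in HFD + RSV mice, and 27.1, 41.4, 20.7, and 33.9 in HFD + MET mice. ENSMUST00000198217, with 22.1%, had 1.14, 31.6, 0.831, and 26.6 FPKM in control mice and 18.2, 13.3, 0.171, and 0.195 FPKM in HFD mice. Neither separated the groups.

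The transcripts that carried the high counts differed even among the HFD mice, and those named next were chosen after their values were seen. ENSMUST00000199105, with alpha1 and the beta exon, had 4780, 40, 1713, and 899 counts in HFD mice and 0 to 37 in the other 12. ENSMUST00000197722, also with alpha1 and beta, had 0, 0, 2420, and 1618 counts in HFD mice, 1608, 0, 1444, and 12 in HFD + MET mice, and 0 to 13 elsewhere. HFD mouse 2 instead had 3129 counts of ENSMUST00000199432, with alpha1 and no beta, and 1476 of ENSMUST00000197146, which had 24 or fewer in every other mouse. ENSMUST00000005722, with alpha2 and a last exon that spans the whole lncRNA, had 116, 1810, 2142, and 1189 counts in HFD mice, 1396, 160, 1165, and 168 in HFD + MET mice, and 82 to 347 in control and HFD + RSV mice.

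Across all members, 67 of the 104 transcripts passed the count filter, and none passed an adjusted P of 0.05 in edgeR in any of the 6 comparisons. Among all 44573 transcripts, 0.0157% passed with diet, 0.0% with RSV, and 0.00449% with MET against HFD mice, and 0.00449% passed for RSV minus control, 0.00224% for MET minus control, and 0.00673% for RSV minus MET. Of the 67, 51 belong to genes other than Mef2c. At an unadjusted P of 0.05 and an absolute log2FC above 1, 5 of these 51 passed with diet, against 5.12% of all transcripts, and of the 5, 4 were Hdac4 and 1 was Hdac7. With RSV 3 of 51 passed, against 2.68%, and with MET 2 of 51, against 3.02%. Of the Mef2c transcripts, 6, 7, and 3 were past these criteria in the same comparisons, from which nothing is read, since Mef2c entered the choice. Over all 67, the counts were 4 for RSV minus control (3.66% of all transcripts), 2 for MET minus control (2.97%), and 5 for RSV minus MET (2.63%). Of these, 0, 1, and 3 were Mef2c transcripts.

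DESeq2, after adjustment, gave 40 transcripts of genes other than Mef2c an adjusted P with diet. It called 3 of these 40, all of Hdac4, against 4.25% of all transcripts with an adjusted P. It called 0 of 49 such transcripts with RSV and 0 of 51 with MET against HFD mice, against 0.376 and 0.393%. Counting Mef2c as well, it called 1 member transcript for RSV minus control (0.924% of all), 0 for MET minus control (0.61%), and 1 for RSV minus MET (0.335%), and both of those called were Mef2c transcripts.

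The deposited transcripts were also grouped by exon, each share being a share of FPKM. For Mef2c, alpha2 made up 78.4, 88.1, 70.8, and 80.9% of alpha-containing transcripts in control mice and 49.3, 57.6, 45.0, and 44.2% in HFD mice. In HFD + RSV mice the share was 70.4, 88.7, 86.9, and 89.3%, and in HFD + MET mice 67.2, 81.1, 65.7, and 85.9%. All HFD mice were below all other mice. The Mef2c alpha1 level was 6.13 ± 1.42 FPKM in the control group and 44.5 ± 8.25 FPKM in the HFD group, while the alpha2 level was 26.4 ± 10.7 and 43.0 ± 8.97 FPKM (SD, n = 4). The alpha1 transcripts ENSMUST00000199105, ENSMUST00000197722, and ENSMUST00000199432, high in HFD mice, share bases with NONMMUT018494.2, as does ENSMUST00000005722 with alpha2. The alpha share and the counts at the end of Mef2c are thus not independent measures, and a separate change of splicing was not tested.

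The beta exon of Mef2c was included in 0.805, 0.269, 0.881, and 0.328% of the transcripts spanning it in control mice and in 40.4, 8.85, 39.0, and 38.8% in HFD mice. HFD + RSV mice had 1.51, 0.38, 0.204, and 0.411%, and HFD + MET mice 23.5, 0.281, 26.7, and 0.515%. Beta transcripts were thus near 0 in the same 10 mice in which NONMMUT018494.2 was near 0. ENSMUST00000199105 and ENSMUST00000197722, which carry most of the beta share, both reach the lncRNA, so the beta share and the counts at the end of Mef2c are not independent measures. With HFD mice in them, these Mef2c shares are given as a description.

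Mef2d kept both alpha exons in all mice. Alpha2 made up 49.0, 52.3, 49.7, and 55% in control mice, 61.5, 54.7, 57.1, and 61.4% in HFD mice, 57.0, 56.7, 55.8, and 52.3% in HFD + RSV mice, and 58.8, 52.9, 53.1, and 60.9% in HFD + MET mice. The HFD mean of 58.7% and the control mean of 51.5% differed with an exact two-sided permutation P of 0.0571, which became 0.436 after adjustment over the 84 share comparisons. The smallest P that 4 mice against 4 can give is 0.0286, so a single share could not pass after adjustment over 84 comparisons. The deposited transcript with Mef2d alpha2 is ENSMUST00000107558, which took 55.3% of the Mef2d FPKM in HFD mice and 47.3% in control mice, with no overlap (exact permutation P 0.0286, adjusted P 0.343). How often transcript shares of all genes separated these groups was not counted. Its FPKM was 16.5, 19.9, 16.8, and 19.0 in control mice and 22.9, 19.9, 21.4, and 23.4 in HFD mice. Mef2d included the beta exon in 15.6 to 24.5% in all mice.

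Mef2a mostly carried alpha1, with 6.68 to 20.8% alpha2. Its beta exon was included in 74.0, 79.4, 72.6, and 82.8% in control mice and 81.3, 82.2, 80.4, and 85.5% in HFD mice. In HFD + RSV mice the share was 79.7, 26.5, 81.2, and 33.5%, and in HFD + MET mice 71.5, 28.9, 75.7, and 84.3%. The treated mice HFD + RSV 2, HFD + RSV 4, and HFD + MET 2 stood far below the other 13. They were also the mice in which ENSMUST00000107476, a transcript without beta that was chosen after its values were seen, had 1201, 1043, and 1504 counts, against 43 to 112 in the others. ENSMUST00000156690, the most abundant Mef2a transcript and one with beta, took 37.3% of the Mef2a FPKM on average in HFD mice and 23.2% in HFD + RSV mice (exact permutation P 0.0286, adjusted P 0.343). None of the 84 share comparisons passed after adjustment. With a smallest P of 0.0286, many of the 84 would have had to sit at it for any to pass. This outcome was thus nearly fixed in advance, and no absence of a difference is read from it.

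**Figure D5:**
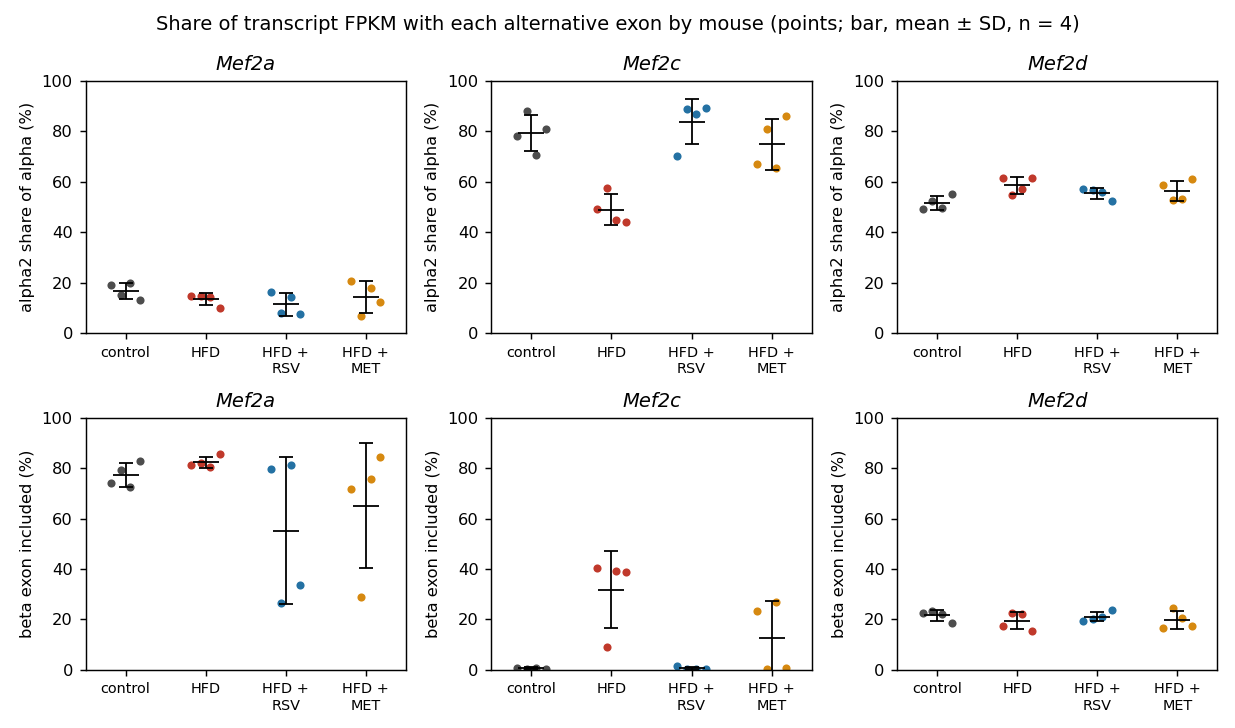
Share of transcript FPKM with alpha2 among alpha-containing transcripts (top) and with the beta exon among transcripts spanning it (bottom), in percent from 0 to 100, for Mef2a, Mef2c, and Mef2d by mouse (points) with the mean and SD of 4 mice. Mef2c alpha2 is lowest in the HFD mice (44.2 to 57.6%), and Mef2a beta inclusion falls into a high and a low range within both treated groups.

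Of the 10 Hdac4 transcripts tested with diet, 8 had a log2FC above 0 and 2 below 0, and 0 passed an adjusted P of 0.05 in edgeR. ENSMUST00000097644, the most abundant (32.4% of Hdac4 FPKM, protein coding, chr1:91928779-92180341), had 8.41, 9.90, 8.77, and 7.59 FPKM in control mice and 11.2, 11.9, 12.8, and 13.9 FPKM in HFD mice. All HFD mice were above all control mice, with a log2FC of 0.68 (SE 0.218, edgeR adjusted P 0.219). How many of all transcripts separated these groups was not counted, and 18.3% of all genes did in TMM-scaled log2 CPM. ENSMUST00000185341, a noncoding Hdac4 transcript (24.1%), had 4.87, 7.44, 4.37, and 6.80 FPKM in control mice and 8.02, 12.0, 13.7, and 10.3 FPKM in HFD mice, with a log2FC of 1.07 (SE 0.269, edgeR adjusted P 0.161). It was -0.75 (SE 0.267) with RSV and -0.64 (SE 0.266) with MET against HFD mice. ENSMUST00000187622 (17.8%) had a log2FC of 0.37 (SE 0.234, edgeR adjusted P 0.554) with diet. The other transcripts named here were chosen after their values were seen. The coding transcripts ENSMUST00000008995 and ENSMUST00000187308 had a log2FC of -1.18 (SE 1.15, edgeR adjusted P 0.741) and -0.42 (SE 1.08, edgeR adjusted P 0.927) with diet. ENSMUST00000008995 had 31 to 132 counts in control mice and 2 to 97 in HFD mice. The coding transcript ENSMUST00000186002 had a log2FC of 0.10 (SE 0.257, edgeR adjusted P 0.930). ENSMUST00000189303 was at 0 counts in 12 mice and at 132 and 196 counts in HFD mice 3 and 4 and 128 and 125 counts in HFD + RSV mice 1 and 3.

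Hdac5 counts moved between a pair of nearly equal transcripts. ENSMUST00000107150 (28.3% of Hdac5 FPKM) and ENSMUST00000107152 (27.9%) differ at the start and overlap over the rest, so the split between them is uncertain. ENSMUST00000107150 had 6.00, 4.73, 4.53, and 12.2 FPKM in control mice and 4.59, 4.18, 4.32, and 11.6 in HFD mice, where ENSMUST00000107152 had 7.45, 11.3, 9.66, and 4.04 and 7.22, 9.53, 9.09, and 6.38. Control mouse 4 and HFD mouse 4 had most of the first and least of the second. With diet their log2FC was -0.02 (SE 0.432) and 0.17 (SE 0.410). For Hdac7 the leading transcript was ENSMUST00000228466 (61.9%), annotated as a retained intron, with 3.29 to 5.87 FPKM over all mice.

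Most Hdac9 signal came from transcripts that end early, as the known short form does. The 3 transcripts of this kind, with coding lengths of 1632 to 1764 bases, summed to 1.16, 2.20, 1.57, and 2.00 FPKM in control mice, 2.34, 1.99, 1.74, and 1.23 in HFD mice, 2.65, 2.35, 1.44, and 2.00 in HFD + RSV mice, and 2.24, 2.36, 1.25, and 1.25 in HFD + MET mice. The 5 transcripts that run on downstream, with coding lengths of 2808 to 3201 bases, summed to between 0.151 and 0.603 FPKM. The short form was the more abundant one in every mouse, and its groups overlapped. ENSMUST00000110819, the most abundant Hdac9 transcript, took 42.8% of Hdac9 FPKM in the control group and 54.4% in the HFD + MET group (exact permutation P 0.0571, adjusted P 0.436).

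Genes that act with the members were given from 5 lists of 82 genes, all of them tested. With diet, 1 of the 82 passed an adjusted P of 0.05 in edgeR and 27 passed an unadjusted P of 0.05, against 2.43 and 24.2% of all genes. Their median log2FC was 0.09, and that of all genes was -0.02. The 1 gene was Mapk11, which encodes the p38 beta kinase. It ranged from 0.523 to 0.756 FPKM in control mice and from 0.867 to 1.32 FPKM in HFD mice, with a log2FC of 0.76 (SE 0.182, edgeR adjusted P 0.0462). It no longer passed with any mouse of these groups left out except control mouse 1, nor without a count filter, in a fit of these 2 groups alone, or with total count scaling.

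Among 22 kinases and export factors of class IIa deacetylases, 5 were higher and 3 lower at an unadjusted P of 0.05 with diet, where 24.2% of all genes passed, with a list median of 0.06. Camk2a, Camk2b, and Sik1 are named after their values were seen. Camk2a and Camk2b, calcium-dependent kinases of muscle, had a log2FC of 0.83 (SE 0.233, edgeR adjusted P 0.0661) and 0.71 (SE 0.202, edgeR adjusted P 0.0676). Sik1, a salt-inducible kinase that phosphorylates class IIa deacetylases, ranged from 10.02 to 18.04 FPKM in control mice and from 5.61 to 6.17 FPKM in HFD mice, with a log2FC of -1.02 (SE 0.300, edgeR adjusted P 0.0738). None of the 3 passed the threshold.

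The same share of all genes, 24.2%, stands beside the counts of the other lists with diet. Of 18 genes of calcineurin, NFAT, and MAP kinases, 7 were higher and 0 lower at an unadjusted P of 0.05 with diet (list median 0.19), and of 15 cofactors and partners 4 were higher and 0 lower (list median 0.12). Of the 7 other deacetylases, 2 were higher (list median 0.05). Rcan1, an inhibitor of calcineurin that its signal induces, had a log2FC of 0.79 (SE 0.276, edgeR adjusted P 0.109) with diet, -0.70 (SE 0.276, edgeR adjusted P 0.999) with RSV, and -1.06 (SE 0.278, edgeR adjusted P 0.519) with MET against the HFD group, and it was also singled out after its values were seen.

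Among 20 muscle genes known as Mef2 targets, 1 was higher and 5 were lower at an unadjusted P of 0.05 with diet, with a list median of 0.03. The lower ones singled out after seeing the values are genes of slow fibers. Myl2 had a log2FC of -3.53 (SE 1.04, edgeR adjusted P 0.0740), Tnnc1 -3.95 (SE 1.23, edgeR adjusted P 0.0836), Tnni1 -3.55 (SE 1.12, edgeR adjusted P 0.0875), and Myoz2 -1.97 (SE 0.773, edgeR adjusted P 0.142). Control mice varied widely for them, with Tnnc1 at 1.11 to 119 FPKM against 0.798 to 9.03 FPKM in HFD mice. With RSV 0 of the 82 genes passed in edgeR and in DESeq2, and 6 at an unadjusted P of 0.05, against 4.72% of all genes. With MET 0 passed in both tools, and 2 at an unadjusted P, against 8.02% of all genes.

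Markers of other cell types are given beside the members. The 8 adipocyte markers summed to 472 to 2595 FPKM in control mice and 36.4 to 455 FPKM in HFD mice (median log2FC -1.90), and the 10 endothelial markers to 179 to 232 and 139 to 167 FPKM (median -0.30). The 7 Schwann cell markers summed to 22.9 to 90.6 FPKM in control mice, 16.4 to 25.3 in HFD mice, and 16.2 to 172 in HFD + RSV mice. The 10 skeletal muscle markers had a median log2FC of 0.43 with diet. At an unadjusted P of 0.05 in edgeR with diet, 4 of these 10 were higher and 0 lower. Lower were 5 of 10 endothelial, 4 of 8 adipocyte, and 4 of 7 Schwann cell markers, and 0 of them were higher. Among all genes, 24.2% passed in that comparison. With RSV, the Schwann cell markers had a median log2FC of 1.25 (6 of 7 higher at an unadjusted P of 0.05 in edgeR). The 5 erythroid markers had a median of 0.92 (4 of 5 higher), against 4.72% of all genes at that P. With MET the erythroid markers had a median of 1.12 (5 of 5 higher) and the adipocyte markers 1.80 (1 of 8 higher). The endothelial markers had a median of 0.24 with MET (3 of 10 higher). Among all genes, 8.02% passed that P with MET. The erythroid markers summed to 432 to 557 FPKM in HFD mice, 645 to 1742 in HFD + RSV mice, and 611 to 2092 in HFD + MET mice, with no overlap between HFD and treated mice. For RSV minus MET, the 5 smooth muscle markers had a median of -0.89 (4 of 5 lower), against 4.68% of all genes. None of these markers passed an adjusted P of 0.05 in edgeR in these comparisons. Their part in the differences of Hdac4, Hdac7, and Mef2c was not tested. Lymphocyte markers, which concern Mef2b, summed to 0.162 to 1.42 FPKM.

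For each tested member, the genes with the most similar pattern over the 16 mice were sought among 15364 genes by Pearson's r of log2 CPM. Because the mice share groups and libraries, these values are a description. For Mef2c they were Mir133a-1 (r = 0.878), Tmco4 (0.856), and Gm42466 (0.856), and for Hdac4 they were Flrt1 (0.942), Tpx2 (0.928), and Herc2 (0.925). Mef2a was closest to Extl2 (0.940), Trappc2 (0.907), and Ss18l2 (0.900), and Mef2d to Tsc1 (0.922), Map4 (0.907), and Dym (0.892). Hdac5 was closest to Stk11ip (0.893), Cep131 (0.890), and Calcoco1 (0.847), Hdac7 to Nos3 (0.826), Caskin2 (0.787), and Tmem255b (0.782), and Hdac9 to Tmem25 (0.901), AC130671.3 (0.889), and Abtb2 (0.877). Among the members themselves, r was highest between Mef2d and Hdac4 (0.761) and was 0.583 between Mef2c and Hdac4.

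The MEF2 consensus, searched by name on both strands in RefSeq promoters of GRCm38.p6 (250 bases before to 50 after the start), was found in 2 of 14 promoters of the members, those of Hdac5 and Mef2a, and in 3.19% of all 32851 promoters. These matches are a description of the sequence and were not set against the expression values.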

How the data were processed

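Skeletal muscle RNA of 16 mice (4 groups of 4, grouped by the treatment labels) was sequenced as paired-end libraries after Ribo-Zero removal of ribosomal RNA. Reads were aligned to GRCm38, with fastp and HISAT2 named in the submitters' processing notes, and counted with StringTie. The authors deposited an expected count per transcript and mouse, which is a whole number without normalization, in an mRNA and a lncRNA table. The deposited FPKM values beside them were those counts divided by transcript length and total count, with no further scaling between mice. Lines broken over 2 rows (4 in the mRNA data) were joined. The tables hold no columns of the authors' own comparisons.

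mRNA counts were summed per gene name. Genes, transcripts, and lncRNAs were each fitted with edgeR 4.0.16 in R 4.3.3: filterByExpr with the groups (at least 10 counts, and 15 in total), TMM scaling, and a robust quasi-likelihood fit of all 16 mice, with 6 comparisons and Benjamini-Hochberg adjustment over all features (adjusted P threshold 0.05). The SE is the absolute log2FC divided by the square root of F. Shares were compared by exact two-sided permutation tests, enumerated in Python 3.11.15 with numpy 2.4.6 and adjusted over 84 comparisons with statsmodels 0.14.6. Alternatives were DESeq2 1.42.0, RLE scaling, no count filter, 12 mice without metformin, 2 groups only, each mouse left out, an unadjusted P of 0.05 with an absolute log2FC above 1, and Mef2c with the lncRNA count. Scaling by total counts and Mef2c without the transcripts that share lncRNA bases were added after seeing the data.

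Named were all 8 members, each member's most abundant transcript and others with at least 10% of its FPKM, NONMMUT018494.2 and overlapping lncRNAs, list genes past an adjusted P of 0.05, and the 3 genes most like each member. The members, lists, and markers were chosen with earlier results of these data known. Counts of the 16 mice were simulated with changes set in the HFD group. For HFD minus control, edgeR recovered 77% of 100 genes changed by a log2FC of 1 and 100% of those changed by 3 (15220 genes tested). It recovered 2% and 88% of transcripts (43496 tested) and 4% and 98% of lncRNAs (16954 tested). Changes were set only in features above a minimum mean level, and each feature was given the spread typical of its level. Recovery of features at lower levels or with more spread was not measured. Total counts were 20281801 to 34021101 per mouse.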

Additional observations from a re-analysis of the deposited data

Results flagged for a closer look

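In 11 of 156 groups of 4 mice, over the levels of members and their named transcripts and the exon shares, 1 mouse stood so far from the other 3 that Dixon's test marked it at its 95% critical value. Chance marks about 1 in 20 groups. The causes were not tested.

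For Mef2c, the HFD mouse 2 included the beta exon in 8.85%, against 38.8 to 40.4% in the other HFD mice, and the HFD + RSV mouse 1 in 1.51%, against 0.204 to 0.411%. The same HFD + RSV mouse had 70.4% alpha2, against 86.9 to 89.3%. For Mef2a, the HFD + MET mouse 2 had 23.8 FPKM, against 20.1 to 20.4 FPKM, and the HFD mouse 4 had an alpha2 share of 10.03%, against 14.5 to 14.9%, and 8.51 FPKM of ENSMUST00000156690, against 6.96 to 7.18 FPKM. Mef2b was at 0.137 FPKM in the HFD + RSV mouse 4, against 0.0568 to 0.0576 FPKM, with 0.0272 FPKM of its transcript ENSMUST00000163756, listed at 0 in the other 3. Of Mef2d, ENSMUST00000107559 had 10.4 FPKM in the HFD + MET mouse 2, against 6.14 to 6.85 FPKM, and ENSMUST00000119251 had 6.41 FPKM in the control mouse 3, against 5.74 to 5.78 FPKM. Of Hdac5, ENSMUST00000107150 had 11.6 FPKM in the HFD mouse 4, against 4.18 to 4.59 FPKM.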

How the results depend on the processing

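Some numbers recur in the labels of different groups, but their meaning is not given, so no paired analysis was made. The cause of each change below was not tested. Mef2c stayed higher with diet when each of these 8 mice was left out (log2FC 1.46 to 1.79) and changed most when the transcripts sharing lncRNA bases were removed, an alternative added after seeing the data: 0.48 (HFD minus control), 0.13 (RSV minus HFD), 0.13 (MET minus HFD), and 0.0061 (RSV minus MET), which left 0 members called with diet. Counts of members and their transcripts here include Mef2c, on which the members were chosen. Mef2c in MET minus control passed with DESeq2 (1.02) and with the unadjusted P and log2FC above 1 (1.02). Hdac4 with diet passed with DESeq2 (0.70), with 12 mice (0.69), and with 2 groups only (0.70), so that 2 members were called in each. In these fits 1544, 1616, and 998 of all genes were called. NONMMUT018494.2 passed with DESeq2 and with the unadjusted criteria in RSV minus MET (-5.66 and -5.64) and in MET minus control (5.89 and 5.88). The share of all lncRNAs that passed there was not counted, and nothing is read from these passes. Differences near 0 changed sign with total counts as the scaling: Mef2a (0.10), Mef2d (0.030), and Hdac5 (0.068) in MET minus HFD, Mef2d in RSV minus control (-0.061), and Hdac9 with diet (-0.091), and so did Hdac5 with diet without a filter (0.0028).

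DESeq2 called 1 member in RSV minus HFD and 1 in MET minus control, as did the unadjusted criteria (1 and 1), and each time it was Mef2c. Of all genes, DESeq2 called 0.0521 and 0.918% there, and the unadjusted criteria 166 and 250. Member transcripts called with DESeq2 numbered 5 with diet, 2 in RSV minus HFD, 2 in MET minus HFD, 1 in RSV minus MET, and 1 in RSV minus control. Of these, 2, 2, 2, 1, and 1 were of Mef2c, and the shares of all transcripts were 4.25, 0.376, 0.393, 0.335, and 0.924%. The unadjusted criteria gave 11, 10, 5, 5, and 4, with 2 in MET minus control, against 5.12, 2.68, 3.02, 2.63, 3.66, and 2.97% of all transcripts. Of the 82 list genes, with diet, DESeq2 called 19, 12 mice 16, 2 groups only 6, the unadjusted criteria 6, no filter 0, and total count scaling 0. In that order, 1544, 1616, 998, 759, 158, and 186 of all genes were called. The unadjusted criteria covered 15364 genes, and the number tested can differ in the other fits. No excess of list genes is read from these counts. In RSV minus HFD, MET minus HFD, RSV minus MET, and MET minus control the unadjusted criteria called 3, 1, 1, and 3 of the list genes. They called 166, 271, 149, and 250 of the 15364 genes there. In RSV minus control, DESeq2 and 12 mice called 1 list gene each, against 2.67% of all genes with DESeq2 and 231 genes with 12 mice. In MET minus control DESeq2 called 2 list genes, against 0.918% of all genes.

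Of all genes, 15364 in the main fit, with diet, DESeq2 called 1544, no filter 158, 12 mice 1616, 2 groups only 998, total count scaling 186, and the unadjusted criteria 759. In RSV minus HFD, DESeq2 called 8 and the unadjusted criteria 166. In MET minus HFD these were 31 and 271, with 1 for 2 groups only and 1 for total count scaling, and in RSV minus MET 10 and 149. In RSV minus control they were 355 and 418, with 231 for 12 mice and 0 for total count scaling, and in MET minus control 141 and 250. Of all transcripts, 44573 in the main fit, with diet, DESeq2 called 1440, no filter 0, 12 mice 104, 2 groups only 51, and the unadjusted criteria 2282. In RSV minus HFD these were 160 for DESeq2, 2 for 12 mice, 6 for 2 groups only, and 1195. In MET minus HFD they were 174 and 1346, and in RSV minus MET 134, 0 for 2 groups only, and 1173. In RSV minus control they were 377, 7 for 12 mice, 11 for 2 groups only, and 1630, and in MET minus control 270, 10 for 2 groups only, and 1322.

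With 1 mouse left out, calls among all genes ranged from 16 (without control 2) to 773 (without control 1) with diet, 0 to 1 in RSV minus HFD, 0 to 2 in MET minus HFD, 0 to 11 in RSV minus control, and 0 to 180 (without MET 3) in MET minus control. Among all transcripts they ranged from 0 to 10 with diet, 0 to 2 in RSV minus HFD, 1 to 4 in MET minus HFD, 2 to 7 in RSV minus MET, 1 to 4 in RSV minus control, and 1 to 4 in MET minus control, and among list genes from 0 to 9 with diet and 0 to 1 in MET minus control. Signs changed for Hdac5 with diet (-0.086 to 0.039), in MET minus HFD (-0.10 to 0.0084), and in RSV minus MET (-0.10 to 0.011), for Hdac9 with diet (-0.047 to 0.25) and in MET minus control (-0.39 to 0.067), and for Hdac4 in RSV minus MET (-0.077 to 0.22). They changed for Mef2a in MET minus HFD (-0.14 to 0.069), RSV minus HFD (-0.042 to 0.11), and RSV minus MET (-0.032 to 0.17), and for Mef2d in MET minus HFD (-0.17 to 0.059), MET minus control (-0.011 to 0.22), RSV minus MET (-0.19 to 0.042), and RSV minus control (-0.026 to 0.078). Among transcripts they changed for ENSMUST00000107150 with diet (-0.45 to 0.40) and in RSV minus HFD (-0.070 to 0.66), ENSMUST00000198199 in MET minus HFD (-0.14 to 0.27) and RSV minus HFD (-0.13 to 0.36), and, in MET minus HFD, ENSMUST00000107558 (-0.27 to 0.0069), ENSMUST00000110819 (-0.36 to 0.13), and ENSMUST00000228466 (-0.015 to 0.14).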
